A study of Mus musculus with 6 samples.

Results

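Transcripts of 42 genes that drive or mark cell division were examined in ear skin of mice on which ticks had fed. The genes were chosen by symbol, as rows of the deposited table whose gene symbol was on a list of cyclins, replication factors, mitotic kinases and spindle proteins. All 42 were among the 15667 genes of the table, and all 42 were among the 14306 genes whose mean level reached 1 count per 1000000 reads (CPM) and which were tested. No genotype difference of any of the 42 passed correction for multiple testing. The mitotic genes ranged further over the libraries than the replication genes did.

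The libraries came from 3 wild-type mice (WT, genotype Adipo+/+) and 3 adiponectin-null littermates (KO, Adipo-/-, homozygous for the targeted allele of B6;129-Adipoq tm1Chan/J). All were females of 7 to 8 weeks that had each carried 10 Ixodes scapularis ticks for 48 h, and each library was made from a punch of 3.5 mm through the bitten ear. The gene was disrupted in every tissue throughout life, and both groups were bitten, so no effect of the bite or of a single tissue can be read from the comparison. Each mouse gave 1 library, unbitten skin was not analysed here, and values are given in the order of replicates 1, 2 and 3.

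A dividing cell first commits in G1, copies its DNA in S phase and then separates the copies in mitosis. D and E cyclins release E2F transcription factors, which switch on the genes for replication origins, forks and deoxynucleotides. Later the factors MYBL2, FOXM1 and the MuvB complex switch on the genes for mitotic entry, the spindle and cytokinesis. In skin, cells divide in the basal epidermis, in growing hair follicles and among activated leukocytes. The 42 genes were therefore described in 2 classes: 16 genes of G1 and S phase (called G1/S genes) and 26 genes of late S phase, G2 and mitosis (called G2/M genes).

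Implied depth ranged from 3403470 reads (KO replicate 3) to 6591320 reads (KO replicate 1). Adipoq, the targeted gene, was at 30.5, 63.7 and 49.6 CPM for WT against 0, 0.56 and 0 CPM for KO, so all 6 labels fitted the level of this gene (limma log2 fold change -6.17, SE 0.41, Benjamini-Hochberg adjusted p = 0.00322). Markers of basal keratinocytes summed to between 14471 and 21206 CPM over the 6 libraries, and suprabasal markers to between 19369 and 33412 CPM, so markers of epidermis were present in each. Hair follicle markers separated the libraries most. Of 20 such markers 14 were listed at 0 in at least 1 library. They summed to 14.3, 21.0 and 24283 CPM in WT mice, compared to 1916, 9630 and 1001 CPM in KO mice.

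The G2/M genes were examined first, beginning with the most used marker of dividing cells. Mki67 (chromosome 7, 135689788 to 135716379, minus strand) encodes Ki-67, which coats mitotic chromosomes. It was at 397, 269 and 273 CPM in the WT libraries (313 ± 72.6, SD, n = 3) against 529, 287 and 323 CPM in the KO libraries (379.5 ± 130.5, SD, n = 3). KO replicate 1 and WT replicate 1 were the 2 highest libraries, and the other KO values lay among the WT values. The log2 fold change in limma was 0.25 (SE 0.25), with a 95% interval of -0.32 to 0.82.

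Top2a (chromosome 11, 98992947 to 99024189, minus strand), the topoisomerase that untangles sister chromatids, was at 175, 104 and 103 CPM (WT) and 212, 112 and 123 CPM (KO). The same libraries were high, and the groups overlapped (log2 fold change 0.21, SE 0.29). Cdk1 (chromosome 10, 69335146 to 69352912, minus strand), the kinase that starts mitosis, was at 37.3, 16.9 and 12.2 CPM for WT against 40.4, 18.8 and 24.4 CPM for KO. Its WT libraries differed 3.06-fold among themselves, whereas the group means were 22.1 ± 13.3 and 27.8 ± 11.2 CPM (SD, n = 3 each; log2 fold change 0.41, SE 0.42). Ccnb1 (chromosome 13, 100778739 to 100786486, minus strand), the cyclin that activates Cdk1, was at 37.5, 16.5 and 15.7 CPM in WT mice, compared to 39.3, 16.5 and 18.8 CPM in KO mice. For both genes WT replicate 1 and KO replicate 1 lay above the remaining libraries.

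**Figure D1:**
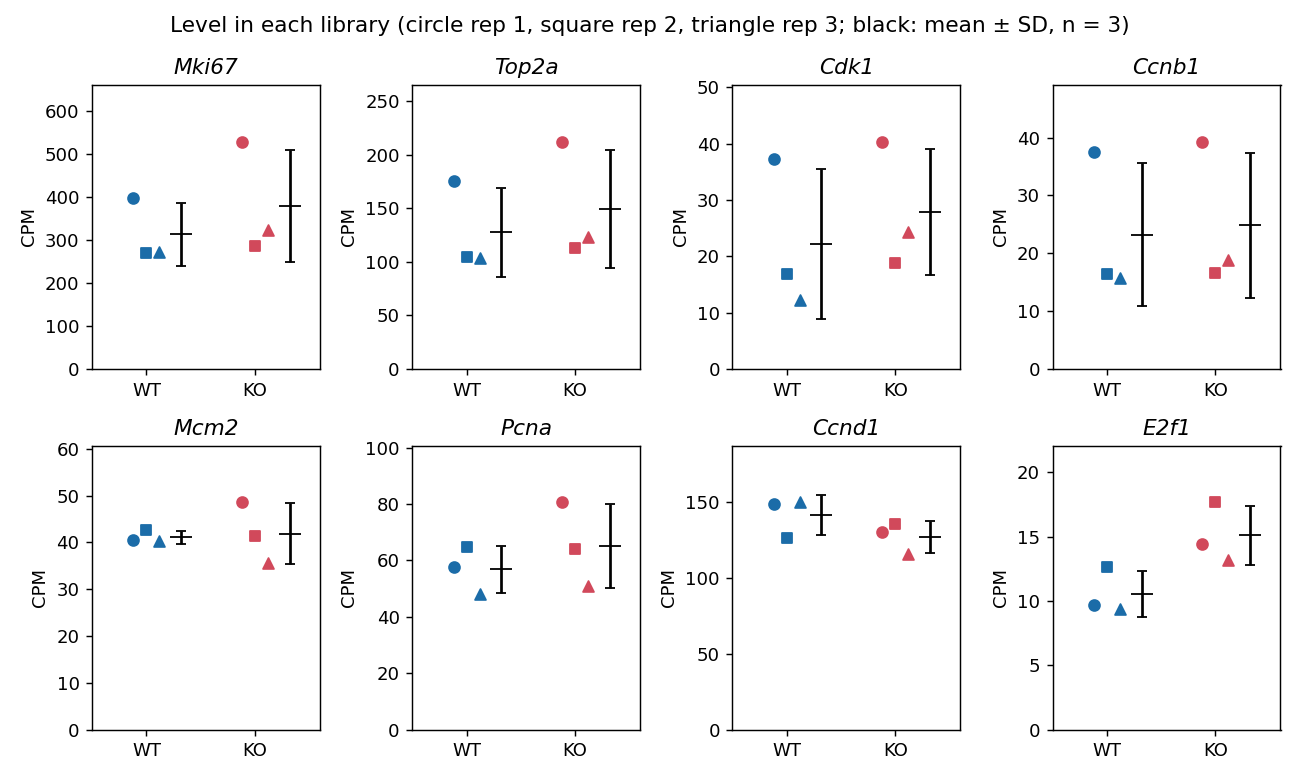
Level of 8 cell cycle genes in CPM, 1 panel per gene with the axis from 0, WT libraries in blue and KO libraries in red. Circles, squares and triangles are replicates 1, 2 and 3, and the black bar is the mean ± SD of 3 libraries. Replicate 1 is the highest of its genotype in both groups for Mki67, Top2a, Cdk1 and Ccnb1. It is so in KO alone for Mcm2 and Pcna, and in neither group for Ccnd1 or E2f1. The KO values lie above all WT values for E2f1 alone.

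The other genes of mitotic entry had the same form. Ccna2, Ccnb2, Plk1, Aurka and Foxm1 encode 2 cyclins, 2 mitotic kinases and the forkhead factor that induces them. Each was highest in WT replicate 1 and KO replicate 1, and their log2 fold changes ran from 0.05 (Aurka) to 0.42 (Ccnb2). Ccnb2 was lowest in WT replicate 2 (7.73 CPM), Aurka in KO replicate 2 (7.01 CPM), and Ccna2, Plk1 and Foxm1 in WT replicate 3.

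The spindle checkpoint, the chromosomal passenger complex and the anaphase-promoting complex were represented by 6 genes. Bub1, a checkpoint kinase, was at 13.6, 7.12 and 6.26 CPM (WT) and 11.99, 8.13 and 6.76 CPM (KO) (log2 fold change 0.04, SE 0.34). Cdc20, which activates the anaphase-promoting complex, was at 43.8, 17.9 and 17.8 CPM for WT against 46.9, 21.0 and 24.7 CPM for KO (0.26, SE 0.41). Aurkb, the kinase of the passenger complex, was at 23.7, 10.2 and 8.41 CPM in WT mice, compared to 22.1, 7.57 and 14.1 CPM in KO mice (0.07, SE 0.47). The log2 fold change of Bub1b, a partner of Bub1 in the checkpoint, was 0.14 (SE 0.29). For Bub1, Cdc20 and Aurkb the highest WT and KO values differed by less than the range within either genotype. Birc5, which encodes survivin of the same complex, had the highest log2 fold change of the 42 genes (0.64, SE 0.41, 95% interval -0.31 to 1.58). It was at 21.5, 11.2 and 6.26 CPM (WT) and 23.8, 15.4 and 16.5 CPM (KO), so the groups overlapped and the lowest library was WT replicate 3. Ube2c encodes the ubiquitin-conjugating enzyme of the anaphase-promoting complex. It was the only G2/M gene with a log2 fold change below 0 in the limma fit of all 6 libraries (-0.05, SE 0.38). With quantile normalization, limma voom or a hair follicle covariate it was above 0.

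Among 11 genes of the centromere, spindle and cytokinesis, Nusap1 had the highest log2 fold change (0.53, SE 0.34). This spindle protein was at 23.5, 15.1 and 10.2 CPM for WT against 30.5, 15.97 and 23.2 CPM for KO. The kinesin Kif11, which pushes spindle poles apart, was at 47.4, 32.3 and 30.7 CPM in WT mice, compared to 58.4, 36.4 and 29.1 CPM in KO mice (0.13, SE 0.28). Its lowest value was thus in a KO library and its highest in another. Cenpe, a kinetochore motor, was at 49.4, 30.7 and 28.5 CPM (WT) and 49.0, 26.6 and 34.4 CPM (KO) (0.02, SE 0.28). Prc1, which bundles the central spindle, was at 48.4, 33.6 and 22.3 CPM for WT against 53.7, 28.9 and 37.3 CPM for KO (0.22, SE 0.31). The kinesin Kif20a had a log2 fold change of 0.43 (SE 0.35), and the values for Cenpa, Cenpf, Tpx2, Hmmr, Kif23 and Anln lay between 0.03 (Hmmr) and 0.27 (Cenpf). The widest spread within WT was that of Anln, an actin-binding protein of the cleavage furrow, whose WT libraries ranged 3.48-fold.

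In all 26 G2/M genes WT replicate 1 and KO replicate 1 were the 2 highest of the 6 libraries. This was so in 10.9% of all genes tested. The remaining libraries ranked less uniformly, and WT replicate 3 was the lowest of the 3 WT libraries in 22 of the 26. It was also lowest in 13 of the 16 G1/S genes, and in 36.6% of all genes tested. As these orderings were seen in the data, they are given as a description. The mean log2(CPM + 0.5) of the G2/M genes was 5.25, 4.49 and 4.22 (WT) and 5.41, 4.47 and 4.71 (KO). The group means of this score (4.65 ± 0.53 in WT and 4.86 ± 0.49 in KO, SD, n = 3 each) differed by less than the SD of either group.

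**Figure D2:**
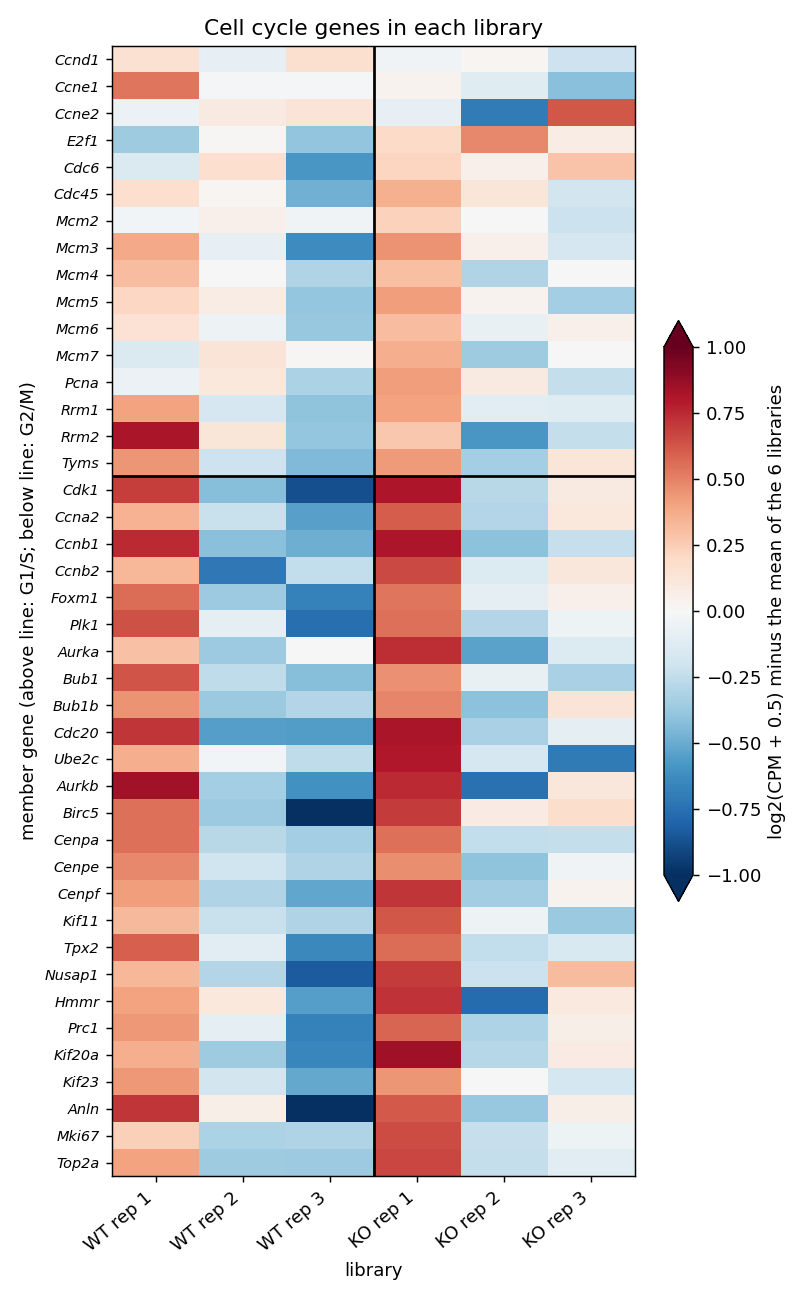
Heat map of the 42 genes (rows; G1/S genes above the horizontal line, G2/M genes below) in the 6 libraries (columns; WT left and KO right of the vertical line). Color is log2(CPM + 0.5) minus the mean of the 6 libraries for that gene, with values past 1 or -1 shown at the end color. The columns of WT replicate 1 and KO replicate 1 are red for all 26 G2/M genes, and the G1/S rows are paler.

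G1/S genes were less uniform. Of the 16, 9 had WT replicate 1 and KO replicate 1 as the 2 highest libraries, and Ccnd1, Ccne2, E2f1, Cdc6, Mcm2, Mcm7 and Pcna did not. The score of the class was 4.95, 4.79 and 4.50 (WT) and 5.05, 4.67 and 4.72 (KO). From lowest to highest library it spanned 0.55 on the log2 scale, against 1.18 for the G2/M genes. The difference between the 2 scores (G2/M minus G1/S) was 0.30 in WT replicate 1 and 0.36 in KO replicate 1, and between -0.30 and -0.01 in the other libraries. The levels of genes are not compared with each other here, since CPM is not scaled by length. Only the change of this difference between libraries can be read.

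Gene by gene, the highest library was set over the lowest after 0.5 CPM was added to each. This makes a ratio smaller than the plain CPM ratios given for single genes. The median, taken on the log2 scale, was 2.40-fold in the G2/M genes, 1.77-fold in the G1/S genes and 1.597-fold over all genes tested. By role it was 2.71-fold for the checkpoint and anaphase genes, 2.46-fold for mitotic entry, 2.37-fold for centromere, spindle and cytokinesis, 2.004-fold for the chromosome markers Mki67 and Top2a, 1.88-fold for the G1 and G1/S regulators, 1.84-fold for deoxynucleotide supply and 1.67-fold for replication licensing and fork. Low genes carry more counting error, and Ccne1, with 9 to 25 implied reads per library, was the lowest of the set.

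Among the G1 regulators, Ccnd1 (cyclin D1, chromosome 7, 144929931 to 144939925, minus strand) varied least of the 42 genes over the 6 libraries. It was at 149, 126 and 150 CPM in WT mice, compared to 130, 135 and 116 CPM in KO mice, a 1.296-fold range (log2 fold change -0.15, SE 0.11, 95% interval -0.42 to 0.11). Ccne2, a cyclin E, was at 7.44, 8.34 and 8.55 CPM (WT) and 7.35, 4.60 and 12.3 CPM (KO). Its KO libraries lay on both sides of the WT libraries. The other cyclin E gene, Ccne1, was at 5.57, 3.66 and 3.63 CPM for WT against 3.79, 3.36 and 2.64 CPM for KO (log2 fold change -0.33, SE 0.30). KO replicate 1 lay within the WT range.

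E2f1 (chromosome 2, 154559400 to 154569892, minus strand), an activating E2F factor, was the only one of the 42 genes whose KO values all lay above its WT values, and none had all KO values below. It was at 9.68, 12.6 and 9.40 CPM in WT mice, compared to 14.4, 17.7 and 13.2 CPM in KO mice (10.6 ± 1.78 and 15.1 ± 2.29 CPM, SD, n = 3 each). The limma log2 fold change was 0.50 (SE 0.21, 95% interval 0.02 to 0.97), with an unadjusted p of 0.0426 and a Benjamini-Hochberg adjusted p of 0.998. Over all genes tested, 2.95% had all KO values above all WT values, 4.89% had all below, and 1.06% were higher in KO at an unadjusted p below 0.05. Leaving out WT replicate 1 gave E2f1 an unadjusted p of 0.104, and leaving out WT replicate 3 gave 0.116. Leaving out KO replicate 1 gave 0.0716, and KO replicate 2 gave 0.139. Without WT replicate 2, and without KO replicate 3, 1 of the 42 genes was higher at an unadjusted p below 0.05 in limma. Over the fits with a single library left out, the log2 fold change of E2f1 ran from 0.38 to 0.63. E2f1 did not have the form of the G2/M genes, since its highest library was KO replicate 2.

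The replication factors load and drive the helicase that opens DNA. Mcm2, a helicase subunit, was at 40.4, 42.7 and 40.2 CPM (WT) and 48.5, 41.5 and 35.5 CPM (KO), and its WT libraries differed only 1.06-fold (log2 fold change 0.01, SE 0.14, 95% interval -0.32 to 0.35). Mcm5, another subunit, was at 45.7, 41.5 and 30.0 CPM for WT against 52.8, 40.4 and 31.1 CPM for KO (0.07, SE 0.23). Pcna, the sliding clamp of the polymerases, was at 57.6, 64.7 and 48.1 CPM in WT mice, compared to 80.6, 64.2 and 50.8 CPM in KO mice (0.18, SE 0.19). For these 3 genes KO replicate 1 was the highest library and the remaining values of both genotypes were interspersed. Of Mcm3, Mcm4, Mcm6, Mcm7, Cdc6 and Cdc45, only Mcm4 had a log2 fold change below 0 (-0.004, SE 0.20), and it was above 0 with either rescaling. The highest was that of Cdc6 (0.37, SE 0.27), the loader of the helicase.

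Ribonucleotide reductase makes deoxynucleotides. Rrm2, the subunit made in S phase, was at 70.9, 43.5 and 30.5 CPM (WT) and 48.4, 26.6 and 33.8 CPM (KO). It had the lowest log2 fold change of the 42 genes (-0.37, SE 0.32, 95% interval -1.12 to 0.38), and WT replicate 1 alone lay above all KO libraries. Without WT replicate 3, the lowest WT library, it was -0.65 (unadjusted p = 0.0465 in limma). The log2 fold change was 0.11 (SE 0.23) for Rrm1, the large subunit, and 0.14 (SE 0.29) for Tyms, thymidylate synthase.

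To see what the genes share in sequence, RefSeq promoter windows (GRCm38.p6) from 250 bases before to 50 bases after a start were searched on both strands. A window was found for 34 of the 42 genes, 13 G1/S and 21 G2/M. The cell cycle homology region (CHR), which MuvB binds at mitotic genes, was searched as TTTGAA or TTTAAA, the latter being its own reverse complement. The CCAAT box, which NF-Y binds, was searched as CCAAT. E2F sites were searched as TTTGGCGC, TTTCGCGC, TTTCCCGC, TTTGCCGC, TTCGCGCC, TTGGCGCC and TTCCCGCC, some of which can overlap by shared letters at 1 site. CHR letters stood in 19 of 21 G2/M windows (90.5%) and in 5 of 13 G1/S windows (38.5%), against 20.1% of the windows of 11259 tested genes. CCAAT letters stood in 18 of 21 G2/M windows (85.7%) and 9 of 13 G1/S windows (69.2%), against 38.6% of all. CHR and CCAAT letters together stood in 17 of the 21 G2/M windows (81.0%) and 4 of the 13 G1/S windows (30.8%), against 8.29% of all. E2F letters stood in 6 of 13 G1/S windows (46.2%) and 2 of 21 G2/M windows (9.52%), against 8.41% of all. These are counts of letters, not of bound sites, over windows that include the 50 bases after the start. Among the G2/M genes, Anln, Aurka, Bub1, Bub1b, Cenpe, Hmmr, Kif23, Nusap1 and Prc1 had no CHR letters in the 250 bases before the start. The start used by the window of E2f1 lay 466 bases from the start in the deposited table, and that of Cdc6 350 bases.

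The 250 bases before the start of 3 G2/M genes and 2 G1/S genes are shown, 5′ to 3′ on the strand of the gene. The first 3 are described above and hold CHR and CCAAT letters, and the last 2 are helicase genes that hold E2F letters. Capitals mark CHR, CCAAT and E2F letters on either strand.
Cdk1, chr10:69352913-69353162, minus strand: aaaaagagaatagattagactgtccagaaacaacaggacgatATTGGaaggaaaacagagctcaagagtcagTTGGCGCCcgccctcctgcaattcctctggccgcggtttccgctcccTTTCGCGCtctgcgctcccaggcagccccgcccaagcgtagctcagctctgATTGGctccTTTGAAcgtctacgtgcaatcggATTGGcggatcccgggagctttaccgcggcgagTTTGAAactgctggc
Ccnb1, chr13:100786487-100786736, minus strand: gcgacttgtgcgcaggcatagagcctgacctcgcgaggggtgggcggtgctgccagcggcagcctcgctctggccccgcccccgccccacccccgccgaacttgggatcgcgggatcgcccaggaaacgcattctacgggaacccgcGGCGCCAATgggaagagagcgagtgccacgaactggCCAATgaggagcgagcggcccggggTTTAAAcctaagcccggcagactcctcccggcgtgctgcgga
Top2a, chr11:99024190-99024439, minus strand: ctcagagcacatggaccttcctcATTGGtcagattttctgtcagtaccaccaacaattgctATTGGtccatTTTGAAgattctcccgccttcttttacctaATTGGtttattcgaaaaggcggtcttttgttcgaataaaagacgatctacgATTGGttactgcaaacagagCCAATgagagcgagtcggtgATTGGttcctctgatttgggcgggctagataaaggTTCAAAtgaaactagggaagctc
Mcm5, chr8:75109259-75109508, plus strand: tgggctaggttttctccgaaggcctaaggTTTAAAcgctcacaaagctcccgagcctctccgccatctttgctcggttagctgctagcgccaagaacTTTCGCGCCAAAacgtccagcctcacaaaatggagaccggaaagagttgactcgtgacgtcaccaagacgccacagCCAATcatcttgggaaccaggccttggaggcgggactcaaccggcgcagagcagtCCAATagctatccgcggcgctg
Mcm6, chr1:128359706-128359955, minus strand: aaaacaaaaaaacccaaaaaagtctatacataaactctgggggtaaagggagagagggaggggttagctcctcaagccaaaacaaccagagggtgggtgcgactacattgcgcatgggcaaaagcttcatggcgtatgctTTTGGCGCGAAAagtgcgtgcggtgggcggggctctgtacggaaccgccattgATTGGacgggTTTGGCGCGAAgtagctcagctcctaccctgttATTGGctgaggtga
In Cdk1, CHR letters began 71 and 15 bases before the start, in Ccnb1 42 bases before it, and in Top2a 179 and 23 bases before it. Mcm6 had E2F and CCAAT letters and no CHR letters in these 250 bases. In Mcm5 the CHR letters began 221 bases before the start. Cdk1 and Ccnb1 were the 2 G2/M windows that held E2F letters as well. In Ccnb1 the E2F letters shared bases with CCAAT letters, within GGCGCCAAT.

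The comparison of the genotypes was next summarised over the set. At an unadjusted p below 0.05 in limma, 1 of the 42 genes (E2f1) was higher in KO and 0 were lower, where 1.06% of all genes tested were higher and 1.82% lower. After Benjamini-Hochberg adjustment over all genes tested, 0 of the 42 passed (smallest adjusted p = 0.998), where 0.00699% of all genes passed in each direction, and with limma voom on implied reads 1 passed unadjusted and 0 adjusted. A log2 fold change above 0 was found in 36 of the 42 genes (25 of 26 G2/M and 11 of 16 G1/S), against 43.3% of all genes tested. The median was 0.14 for the set, 0.18 for the G2/M genes and 0.09 for the G1/S genes, against -0.03 for all genes tested. Without WT replicate 1 the number higher at an unadjusted p below 0.05 was 4 (Cdk1, Foxm1, Birc5 and Nusap1), and it was 0 without WT replicate 3, KO replicate 1 or KO replicate 2. The shares of all genes tested that passed in these fits are not given here, so these counts have no background. The share above 0 depended on single libraries. Without KO replicate 1, 13 of the 42 genes were above 0 (median -0.07), and without WT replicate 3, 20 were (median -0.02). Leaving out WT replicate 1 gave 37 above 0 (median 0.40). The median was 0.32 when KO replicate 2 was left out, 0.25 for KO replicate 3 and 0.09 for WT replicate 2. With WT replicate 1 and KO replicate 1 both left out, a choice made after the data were seen, 32 were above 0 (median 0.18). A 2-fold difference in either direction lay outside the unadjusted 95% interval of 30 of the 42 genes (14 of 16 G1/S and 16 of 26 G2/M), and for the others the interval with 3 mice per group reached that size. Over all genes tested, such a difference lay outside the interval of 10651 of 14306, so the count is not particular to these genes.

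**Figure D3:**
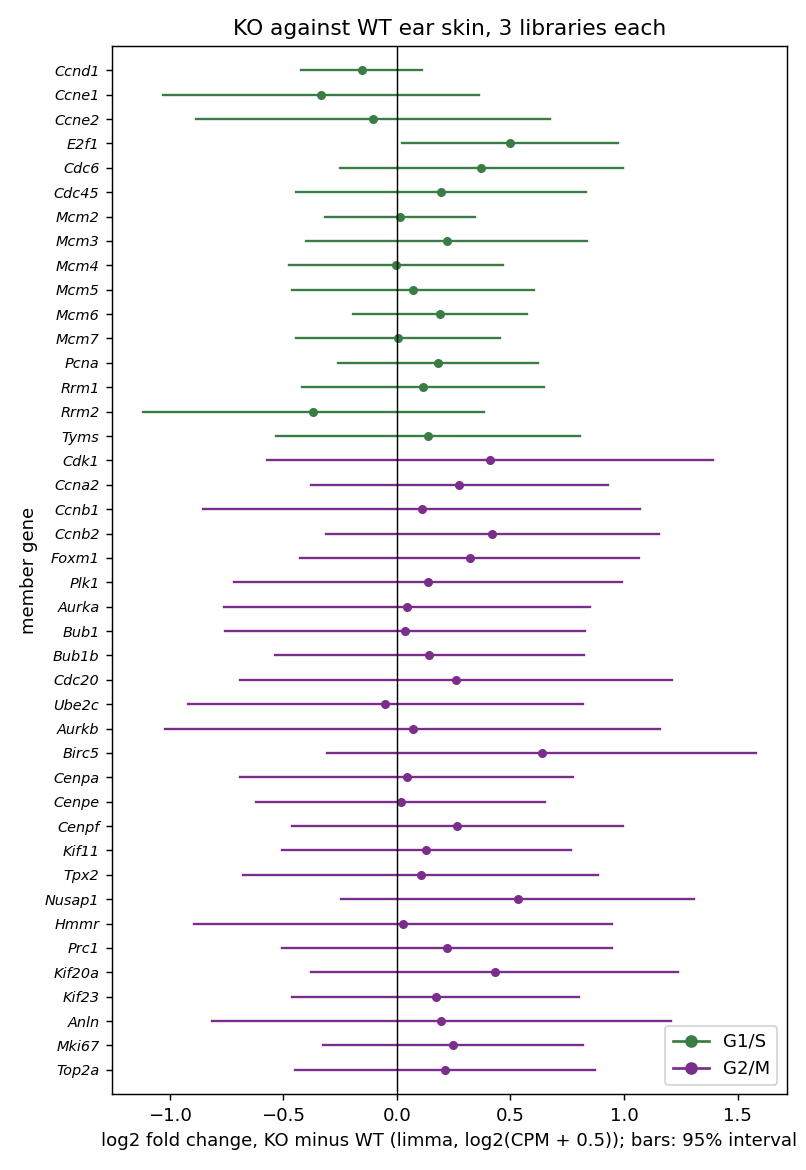
Log2 fold change of KO over WT (points) with its 95% interval (bars) from limma for each of the 42 genes, G1/S genes in green and G2/M genes in purple. The interval leaves 0 only for E2f1, points run from -0.37 (Rrm2) to 0.64 (Birc5), and the bars of G2/M genes are mostly longer.

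A wider list of 135 other cell cycle genes, written by hand, was then examined, and 134 were in the table and tested. At an unadjusted p below 0.05, 1 was higher in KO (Dlgap5) and 0 were lower, where 1.06% of all genes tested were higher and 1.82% lower. After adjustment 0 passed in limma. Dlgap5, a spindle protein, was at 10.7, 8.14 and 6.92 CPM for WT against 14.9, 14.9 and 10.9 CPM for KO (log2 fold change 0.64, SE 0.24, unadjusted p = 0.0277, adjusted p = 0.998). Its KO values all lay above its WT values, as did those of Chaf1b, and 4 of the 134 genes (Cdc25a, Rbl2, E2f6 and Orc5) had all KO values below. Over all genes tested these shares were 2.95% above and 4.89% below, so neither count exceeded the background. The count of genes higher at an unadjusted p below 0.05 was 7 without WT replicate 1, 0 without WT replicate 2 or KO replicate 1, and 2 without KO replicate 2 or KO replicate 3. For these fits the share of all genes tested that passed is not given here. Of 48 further genes of mitosis and cytokinesis, 39 had a log2 fold change above 0 (median 0.21), and of 42 genes of replication and chromatin assembly, 32 (median 0.09). Of 15 cyclins, cyclin-dependent kinases and their regulators, 8 were above 0 (median 0.015).

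Among genes that hold cells out of division, and among E2F and MuvB genes, 0 passed the limma test at an unadjusted p below 0.05. Of 15 inhibitors and antiproliferative genes 5 were above 0, with a median of -0.09, and of 14 E2F and MuvB genes also 5 were (median -0.09). Over all genes tested 43.3% were above 0 and the median was -0.03. Cdkn1a encodes p21, an inhibitor of cyclin-dependent kinases. It was at 230, 262 and 274 CPM in WT mice, compared to 195, 236 and 225 CPM in KO mice (log2 fold change -0.22, SE 0.11, unadjusted p = 0.0894 and adjusted p = 0.998 in limma). KO replicate 1 was lowest, and KO replicate 2 lay within the WT range. WT replicate 1 and KO replicate 1 were the 2 highest libraries in 32 of the 48 further mitotic genes. They were so in 20 of the 42 replication genes and in 1 of the 15 inhibitors (6.67%), against 10.9% of all genes tested.

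The levels were set beside markers of cell types, since in a skin punch fewer cells of a type and less RNA per cell cannot be told apart. The 8 basal keratinocyte markers summed to 19494, 19696 and 14471 CPM (WT) and 21206, 17255 and 19886 CPM (KO). Per 1000 CPM of these markers, the 26 G2/M genes summed to 74.8, 45.6 and 54.5 CPM for WT against 80.8, 52.4 and 53.1 CPM for KO. WT replicate 1 and KO replicate 1 thus remained the highest on this scale, and WT replicate 3 was no longer the lowest. Hair follicle markers were lowest in WT replicates 1 and 2, whose G2/M scores were 5.25 and 4.49. WT replicate 3 held the most hair follicle transcripts and the lowest G2/M score. When the hair follicle score was added to the fit, 3 of the 42 genes (Birc5, Nusap1 and Anln) were higher in KO at an unadjusted p below 0.05, and 0 after adjustment (smallest adjusted p = 0.583 in limma). The share of all genes tested that passed in this fit is not given here, so the count of 3 has no background.

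The sum of the 7 neutrophil markers in the table was also highest in the same 2 libraries, at 571, 195 and 55.4 CPM in WT mice, compared to 212, 113 and 111 CPM in KO mice, and none of them was at 0 in any library. WT replicate 3 was lowest for both. Markers of all leukocytes did not share this order, at 272, 285 and 153 CPM (WT) and 188, 284 and 177 CPM (KO). T cell markers lay between 20.6 and 32.1 CPM. Fibroblast markers summed to 4466 to 6984 CPM, endothelial markers to 104 to 172 CPM, adipocyte markers to 192 to 505 CPM and skeletal muscle markers to 1607 to 3788 CPM. KO replicate 1 was lowest for the endothelial, adipocyte and muscle sums and second lowest for fibroblasts. The part of these cells in the levels of the mitotic genes was not tested. By implied depth KO replicate 1 was the deepest library and WT replicate 1 the third shallowest, and the part of depth was not tested.

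**Figure D4:**
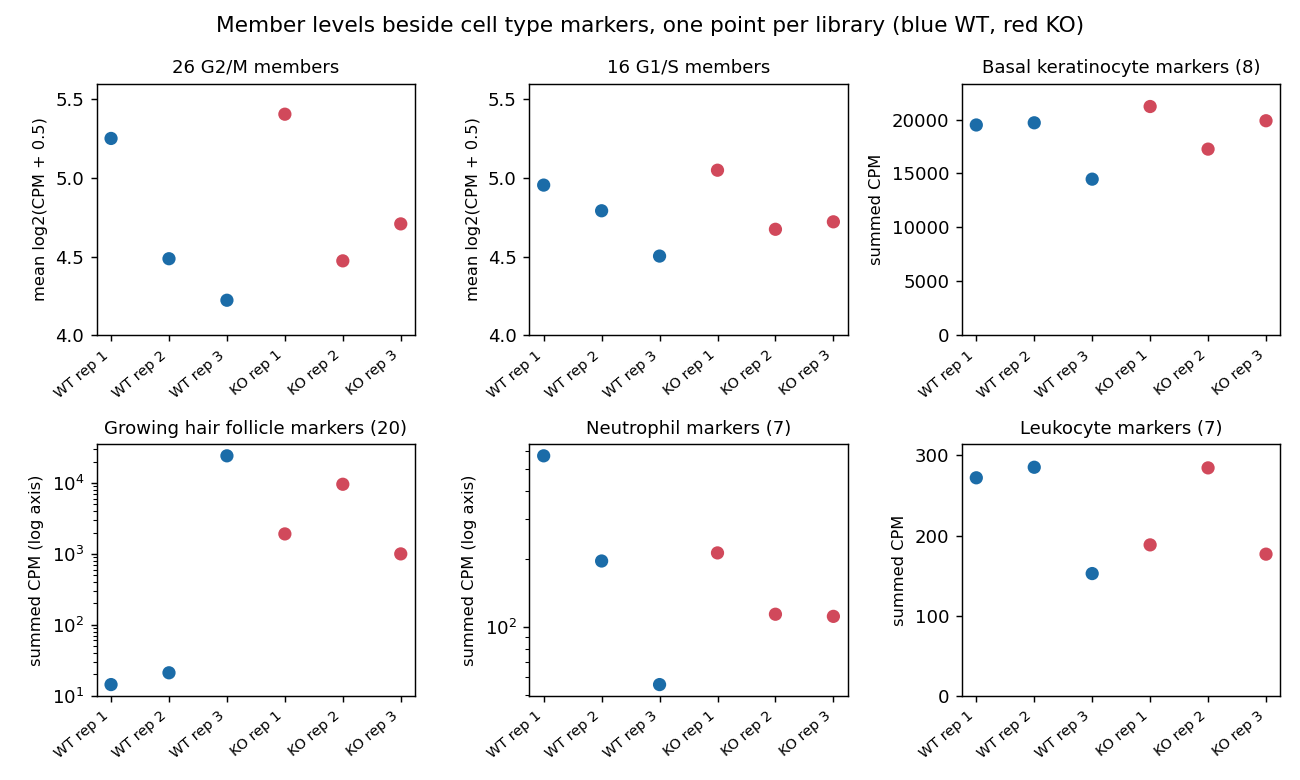
One point per library, WT in blue and KO in red, for the mean log2(CPM + 0.5) of the 26 G2/M and 16 G1/S genes and for the summed CPM of 4 marker lists; the hair follicle and neutrophil panels have log axes and the score panels do not start at 0. The G2/M score and the neutrophil sum are highest in WT replicate 1 and KO replicate 1 and lowest in WT replicate 3, where the hair follicle sum is highest.

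Some values are less certain than others. The recovered reads were whole numbers, within 0.1 of a read, in all 6 libraries for 37 of the 42 genes, but not for Ccnd1, Ccne2, Ccna2, Kif20a or Mki67. The first 4 overlap a listed neighbor (LTO1 for Ccnd1, Ints8 for Ccne2, Exosc9 for Ccna2, and Brd8 and Cdc23 for Kif20a), and no source used here gives the use of strand, so reads could be divided between neighbors. Cdc20 and Nusap1 also overlap a listed gene (Elovl1 and Oip5) and had whole reads in all 6 libraries. Mki67 overlaps no listed gene. It had 1022.91 to 3484.9 implied reads per library, where a limit of 0.1 of a read is narrow, and 4 libraries met it.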

How the data were processed

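RNA-seq was done on ear skin at the tick bite site of 3 WT and 3 KO mice. The authors trimmed reads, aligned them with STAR 2.7.3a to mm10, quantified genes (Ensembl release 100) with the Partek E/M algorithm, and deposited CPM values: the gene count divided by the library total, with an offset of 0.0001. Read counts were not used here. The value of 1 read was estimated from the steps between low CPM values. It gave the implied depth, and between 91.9% and 92.8% of values under 20 reads came within 0.1 of a whole read, so no count test was the main test. One read was then worth 0.152 to 0.294 CPM. Intervals rest on the spread between libraries, 1 per mouse, in which differences of mouse, punch and read counting are not separated.

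The 14306 genes whose mean reached 1 CPM were kept, 1361 were left out, and the values were fitted as log2(CPM + 0.5) with limma 3.58.1 in R 4.3.3 (two-sided moderated test with a mean-variance trend, Benjamini-Hochberg adjustment over all tested genes). A fold change is on that log2 scale and understates changes of low genes. In the fit of all libraries, unadjusted p-values below 0.05 are counted beside the percent of all genes tested that pass. Counts under alternative fits have no such percent beside them. An exact permutation test of 3 against 3 cannot go below p = 0.1. The labels give no batch. The fit was also run on simulated counts with 1 dispersion for all genes and libraries that differed only in depth and genotype. These libraries differed in more than that, and no outcome of the simulation is given or relied on here. Alternatives were other pseudocounts, filters and scalings, no trend, limma voom on implied reads, a hair follicle score as covariate, a replicate block and leaving out each library.

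The 42 genes, their classes and the lists of other cell cycle genes and cell type markers were chosen with earlier results of these data known. Values per library are given for fixed examples of each role, for genes at an unadjusted p below 0.05 and for the 3 highest and 3 lowest log2 fold changes; of the other cell cycle genes, for those at an unadjusted p below 0.05 and Cdkn1a. Cdkn2a was not analysed here.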

Additional observations from a re-analysis of the deposited data

How the results depend on the processing

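Under 17 alternatives, 6 of which left out a single library, 0 of the 42 genes passed an adjusted p of 0.05 in limma. The number higher in KO at an unadjusted p below 0.05 was 1 in the fit of all libraries, 3 with the hair follicle covariate (Birc5, Nusap1 and Anln) and 0 to 4 with a library left out. It was 4 without WT replicate 1 (Cdk1, Foxm1, Birc5 and Nusap1) and 0 without WT replicate 3, KO replicate 1 or KO replicate 2. The number lower was 0, and 0 to 1 with a library left out (Rrm2 without WT replicate 3). Among the other cell cycle genes the number higher was 1, and 2 with pseudocount 0.1, median-of-ratios rescaling, quantile normalization or no trend, 3 with voom or without both WT replicate 1 and KO replicate 1, 8 with the hair follicle covariate, and 0 to 7 with a library left out. The number lower was 0, and 1 without the trend or with the hair follicle covariate, and 0 to 3 with a library left out. For counts under the alternatives the share of all genes tested is not given here, so they have no background. Adipoq had a log2 fold change of -7.88 with voom (adjusted p = 0.488) and -6.28 without both libraries (0.177), and -6.54 to -5.94 with a library left out (0.0683 without WT replicate 2). The cause was not tested. The 42 genes' median stayed between -0.07 and 0.40.

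Samples with the same replicate number were not paired by the labels, and their deviations from the group means correlated at 0.38, -0.31 and -0.22. Only replicate 1 correlated best with its own number. With the number as a replicate block the median of the 42 genes was 0.14, 1 was higher and 0 lower at an unadjusted p below 0.05, and of the other cell cycle genes 7 were higher and 1 lower. The share of all genes tested that passed in that fit is not given here.

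Of 713 log2 fold changes of single genes under an alternative, 648 kept their sign and their side of the threshold, 65 reversed and 0 newly passed an adjusted p of 0.05. Mcm4 became 0.026 with median-of-ratios rescaling, 0.019 with quantile normalization, 0.044 with voom and 0.15 with the hair follicle covariate. Ube2c became 0.0014 with quantile normalization, 0.12 with voom and 0.055 with the hair follicle covariate. Without both WT replicate 1 and KO replicate 1, Mcm2 became -0.11, Mcm7 -0.25, Aurka -0.15 and Hmmr -0.12. With a single library left out, 27 genes crossed 0, with these lowest and highest values: Ccne2 -0.44 to 0.22, Mcm2 -0.10 to 0.12, Mcm3 -0.039 to 0.46, Mcm4 -0.16 to 0.15, Mcm5 -0.12 to 0.26, Mcm7 -0.18 to 0.18, Rrm1 -0.059 to 0.34, Tyms -0.048 to 0.39, Ccnb1 -0.27 to 0.51, Plk1 -0.20 to 0.49, Aurka -0.31 to 0.32, Bub1 -0.18 to 0.36, Bub1b -0.066 to 0.40, Cdc20 -0.081 to 0.68, Ube2c -0.46 to 0.29, Aurkb -0.28 to 0.51, Cenpa -0.22 to 0.33, Cenpe -0.21 to 0.26, Cenpf -0.023 to 0.54, Kif11 -0.15 to 0.35, Tpx2 -0.19 to 0.43, Hmmr -0.32 to 0.42, Prc1 -0.059 to 0.49, Kif23 -0.039 to 0.43, Anln -0.29 to 0.60, Mki67 -0.016 to 0.43 and Top2a -0.072 to 0.46. The cause was not tested. The depth of 3403470 to 6591320 implied reads limits the rarest genes, since 3 reads were worth 0.455 to 0.881 CPM.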
